A study of Mus musculus with 6 samples.

Results

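Platelet and megakaryocyte genes were examined in 6 mouse RNA-seq libraries labelled as sorted blood basophils, although the series' design text speaks of ear skin. The 10 genes, out of 55401 in the count table, were chosen by name as products of the platelet lineage (Ppbp, Pf4, Itga2b, Itgb3, Gp9, Gp1bb, Gp1ba, Treml1, Clec1b and Tubb1), and all 10 were found by symbol. The libraries form 2 sets of 3, labelled B and A, from wild-type mice whose genotype and age are not further described in the sources used here. In the model behind the study, MC903, a vitamin D analogue that causes dermatitis, was put on both ears each day from day 0 to day 6 at 2 nmol in 10 µL of ethanol, and control mice received ethanol alone. The labels used here do not tie MC903 or ethanol to a set, so each difference is stated as set B over set A. After red cell lysis, live CD45+ leukocytes were gated as lineage-negative, CD49b+ and positive for FcεRIα or IgE. The lineage antibodies are not named there, the RNA is described as pooled, and the labels tie no library to an animal, so p-values measure only the spread among these libraries, which could be technical.

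Platelets are cell fragments without a nucleus that megakaryocytes of the bone marrow shed into the blood. They carry RNA from the parent cell, store chemokines in alpha granules, and stop bleeding by binding von Willebrand factor through the GPIb-IX complex, collagen through GPVI and the integrin alpha2 beta1, and fibrinogen through the integrin alphaIIb beta3. The alpha2 chain of that collagen receptor is CD49b, the marker used in the sort, and it is found on platelets as well as on basophils and natural killer cells.

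The labelled cell type was not clearly borne out in either set, and several basophil markers were near 0 in set A. Fcer1a, the IgE-binding chain of the basophil receptor, was at 216, 94.4 and 41.9 CPM (the gene's count scaled to a library total of 1000000) in B replicates 1, 2 and 3, against 0.0726, 0 and 0 CPM in A. Mcpt8, a basophil granule protease, was at 1173, 872 and 478 CPM in B, against 0.762, 0.681 and 1.28 CPM in A. Prss34, Cpa3 and Cd200r3 stayed at or below 0.867 CPM in A. Of the other basophil markers listed, Hdc was at 685, 467 and 359 CPM in B, against 38.0, 62.2 and 267 CPM in A. Gata2 was at 42.8, 1.15 and 24.8 CPM in B, against 0.109, 45.7 and 116 CPM in A. Ms4a2 reached 11.9 CPM in A replicate 2 alone. Genes of other blood cells stood high in both sets. Lyz2 was at 22600 to 29746 CPM in B, against 32015 to 39756 CPM in A. S100a8 was at 7251 to 13750 CPM in B, against 1259 to 5378 CPM in A. Ighm was at 1448 to 2053 CPM in B, against 1329 to 1642 CPM in A. Fcer1a, Mcpt8 and the platelet sum given below did not overlap between the sets. In edgeR's test of B over A, described below, Mcpt8 passed (adjusted p = 0.0125) and Fcer1a did not (adjusted p = 0.508). These calls depended on the tool. DESeq2 called both (adjusted p = 3.85e-103 for Mcpt8 and 2.22e-11 for Fcer1a). Limma-voom called Fcer1a (adjusted p = 0.0374) and not Mcpt8 (adjusted p = 0.614). With the replicate number as a block, edgeR called neither gene (adjusted p = 0.194 for Mcpt8 and 0.998 for Fcer1a). No single platelet gene passed edgeR's test. The part of the basophil difference in the platelet sum was not tested. Total counts were 49742321 to 63956911 in B and 46137963 to 55116567 in A, and 3 counts, taken as the limit that a count of 0 allows, correspond to 0.0469 to 0.0650 CPM. Low counts in this table cluster at 4, and if 1 fragment gave 4 counts the limit would be 12 counts, or 0.188 to 0.260 CPM, a reading added after the counts were seen. Either limit covers counting error only, since these reads have no molecular identifiers. In bulk RNA, fewer platelets and less RNA per platelet cannot be told apart.

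The stretches before the transcription start of 4 members are shown here because these genes mark the extremes of the results: Ppbp and Pf4, chromosomal neighbours, had the highest levels, Tubb1 the largest fitted difference among the members, and Gp1ba was near 0 in all libraries but A replicate 1. Sequences are RefSeq's on GRCm38.p6, 250 bases up to the start of the transcript, 5′ to 3′ on the strand of the gene. Capitals mark matches, on either strand, to AGATAA or TGATAA, which GATA factors bind, and to CAGGAA, which ETS factors such as Fli1 bind.
Ppbp: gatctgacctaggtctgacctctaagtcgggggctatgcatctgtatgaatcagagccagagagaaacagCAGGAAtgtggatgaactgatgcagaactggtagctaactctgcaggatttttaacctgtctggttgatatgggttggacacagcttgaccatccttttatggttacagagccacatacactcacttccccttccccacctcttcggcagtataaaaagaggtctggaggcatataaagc
Pf4: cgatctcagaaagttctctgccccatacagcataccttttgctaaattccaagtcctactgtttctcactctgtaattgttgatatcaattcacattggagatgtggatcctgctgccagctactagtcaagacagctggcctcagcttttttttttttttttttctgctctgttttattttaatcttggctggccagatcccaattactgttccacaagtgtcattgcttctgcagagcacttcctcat
Tubb1: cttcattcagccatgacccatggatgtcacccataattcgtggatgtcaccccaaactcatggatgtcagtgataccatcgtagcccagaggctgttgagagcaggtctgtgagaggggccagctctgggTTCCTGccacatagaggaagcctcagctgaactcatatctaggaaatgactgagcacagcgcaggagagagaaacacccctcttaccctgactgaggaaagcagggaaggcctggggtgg
Gp1ba: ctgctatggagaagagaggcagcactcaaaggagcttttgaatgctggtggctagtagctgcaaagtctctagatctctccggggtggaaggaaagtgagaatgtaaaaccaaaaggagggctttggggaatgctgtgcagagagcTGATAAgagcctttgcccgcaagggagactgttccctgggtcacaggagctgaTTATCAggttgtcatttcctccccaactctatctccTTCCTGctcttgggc

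The Ppbp stretch lies at chr5:90768268-90768517 and that of Pf4 at chr5:90772185-90772434, both on the plus strand. Tubb1's lies at chr2:174450345-174450594 and Gp1ba's at chr11:70638872-70639121, both also on the plus strand. A match to CAGGAA began 180 bases before the start in Ppbp and 120 bases before it in Tubb1. Gp1ba held 3 matches, to TGATAA at 104 and 51 bases and to CAGGAA at 15 bases, and Pf4 held none of these letters. No matches overlapped each other. Of the 9 members with a sequence in the table (Itgb3 had none there), 2 held a GATA match, against 16.6% of 32851 promoters of the same length, and 5 held an ETS match, against 25.7%. A match is a description of letters and not of a site in use: Gp1ba, with the most matches, was the member with the fewest libraries above 1 CPM.

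Transcripts of the platelet lineage were present in every library of both sets. Summed over the 10 genes, they made up 991, 646 and 640 CPM in B replicates 1, 2 and 3, against 1260, 1683 and 1429 CPM in A replicates 1, 2 and 3. Every B library was thus below every A library, and the sum averaged 759 ± 201 CPM in B, against 1457 ± 213 CPM in A (SD, n = 3 each), a ratio of 0.521. That separation was lost without Ppbp and Pf4: the other 8 genes summed to 491, 271 and 286 CPM in B, against 740, 900 and 436 CPM in A, so B replicate 1 lay above A replicate 3 (ratio 0.505). The sums of the integrin chains, of the GPIb-IX chains and of Treml1 with Clec1b overlapped as well. Between 7 and 9 of the 10 genes reached 10 CPM in each B library and 8 in each A library, and 6 genes did so in all 6 libraries (Ppbp, Pf4, Itga2b, Gp9, Gp1bb and Treml1). No single gene of the 10 passed the test of B over A (edgeR's quasi-likelihood test over 9196 genes, Benjamini-Hochberg adjusted p under 0.05), where 0.0217% of tested genes were called higher and 0% lower.

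**Figure D1:**
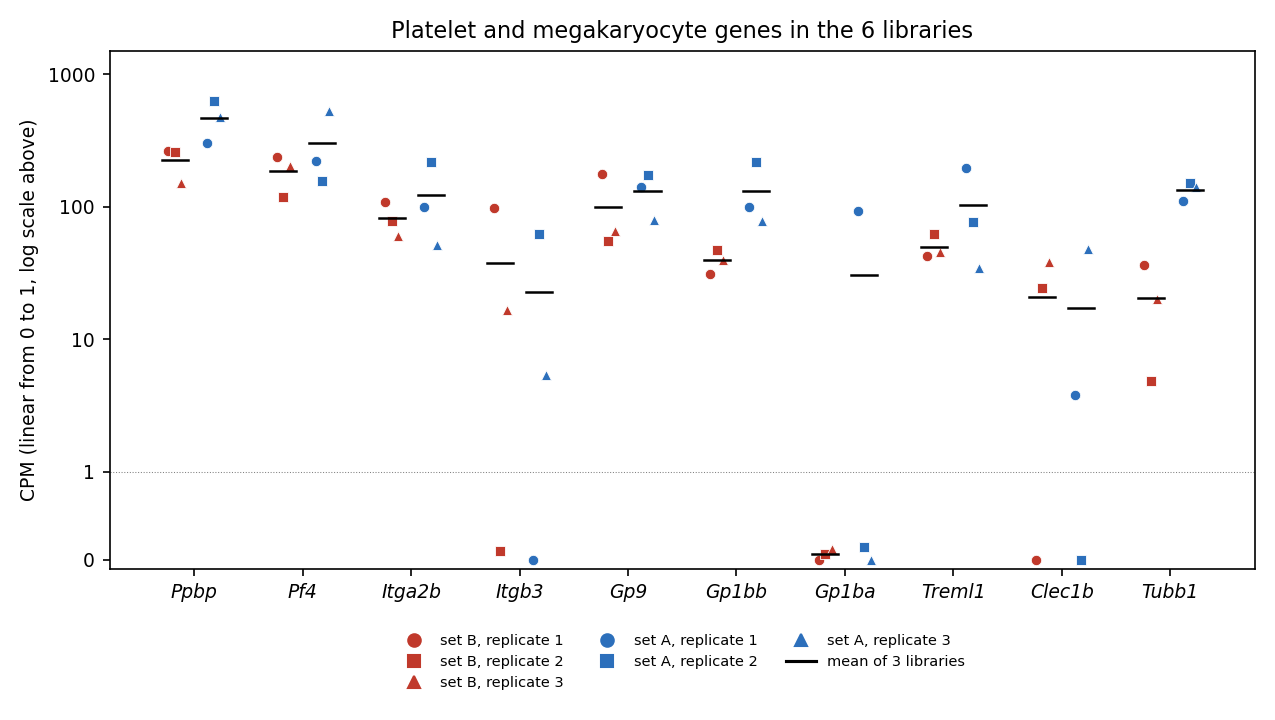
CPM of the 10 platelet and megakaryocyte genes in each library, with set B left of set A for each gene, the replicate number given by the marker and the mean of 3 libraries as a bar; the axis is linear from 0 to 1 CPM and logarithmic above. Ppbp, Gp1bb and Tubb1 have all B values below all A values, while Gp1ba stands above 1 CPM in A replicate 1 alone.

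The alpha granule chemokines were the most abundant members. Ppbp (ENSMUSG00000029372) encodes pro-platelet basic protein, the precursor of the neutrophil attractant CXCL7, and was at 262, 256 and 151 CPM in B, against 301, 627 and 471 CPM in A. The sets did not overlap, with 223 ± 62.2 CPM in B against 466 ± 163 CPM in A (SD, n = 3 each). The log2 fold change was -1.16 (SE 0.36) and did not pass (edgeR adjusted p = 0.508). Pf4 (ENSMUSG00000029373), platelet factor 4 or CXCL4, which binds heparin, was at 239, 118 and 202 CPM in B, against 219, 157 and 522 CPM in A. Here the sets overlapped, and A replicate 3 alone stood above all B libraries (log2 fold change -0.75, SE 0.54, edgeR adjusted p = 1; -0.17 without A replicate 3). Together these chemokines made up 50.5%, 58.0% and 55.3% of the summed CPM of the 10 genes in B, against 41.3%, 46.6% and 69.5% in A, so their share of the platelet signal overlapped between the sets.

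The chains of the fibrinogen receptor did not run in parallel. Itga2b (ENSMUSG00000034664), the alphaIIb chain, known in blood as a marker of the megakaryocyte lineage, was at 109, 77.4 and 60.4 CPM in B, against 99.1, 216 and 51.4 CPM in A. It was present in all libraries and the sets overlapped (log2 fold change -0.69, SE 0.76, edgeR adjusted p = 1; -0.01 without A replicate 2). Itgb3 (ENSMUSG00000020689), the beta3 chain, which also pairs with the alphaV chain in other cells, was at 96.8, 0.101 and 16.6 CPM in B, against 0, 62.4 and 5.33 CPM in A. High and near-zero libraries occurred in both sets, and B replicate 2 and A replicate 1, with 6 and 0 counts of Itgb3, held 77.4 and 99.1 CPM of its partner Itga2b. The log2 fold change of Itgb3 was 0.67 (SE 2.93, edgeR adjusted p = 1), and it was -1.51 without B replicate 1.

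The GPIb-IX complex, the receptor for von Willebrand factor, was read through 3 of its chains. Gp9 (ENSMUSG00000030054), a small chain needed for surface expression of the complex, was at 175, 55.4 and 65.9 CPM in B, against 140, 174 and 79.4 CPM in A, and the sets overlapped (log2 fold change -0.53, SE 0.71, edgeR adjusted p = 1; -1.24 without B replicate 1 and -0.21 without B replicate 2). Gp1bb (ENSMUSG00000050761), the beta chain of GPIb, was at 31.2, 47.2 and 39.4 CPM in B, against 100.0, 218 and 78.4 CPM in A. No B library reached the lowest A library, and the means were 39.3 ± 7.97 CPM in B against 132 ± 75.3 CPM in A (SD, n = 3 each), with a log2 fold change of -1.86 (SE 0.80, edgeR adjusted p = 0.835). In GENCODE M21 Gp1bb overlaps Sept5 on the same strand, and the sources used here do not say how the authors' counting split shared reads. Sept5 itself was at 3.60, 1.64 and 0 CPM in B and at 0 in all A libraries.

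Gp1ba (ENSMUSG00000050675), the chain of the complex that binds von Willebrand factor, was at 0, 0.0677 and 0.125 CPM in B, against 91.8, 0.151 and 0 CPM in A. In raw counts these are 0, 4 and 8 in B and 5061, 8 and 0 in A. The gene thus stood above 1 CPM in 1 library of 6, did not pass the filter on low counts and was not tested. Gp9, Gp1bb and Gp5, the remaining chains, were at 46.9 CPM or more in all libraries except Gp1bb in B replicates 1 and 3, at 31.2 and 39.4 CPM.

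Gp1ba, Itgb3 and Clec1b supplied all 9 of the 60 member values under 1 CPM, which is 15.0% of the values. Among all tested genes, 37.7% of the values were under 1 CPM where the mean over libraries was 10 to 30 CPM, 19.5% where it was 30 to 100 CPM and 3.68% where it was 100 to 300 CPM. Over the 6 libraries Gp1ba averaged 15.4 CPM, Clec1b 19.0 CPM and Itgb3 30.2 CPM. Of the 6 libraries, Gp1ba was under 1 CPM in 5, and Clec1b and Itgb3 in 2 each. Near-zero values at these levels were thus common among tested genes. That background leaves out genes stopped by the filter on low counts, as Gp1ba was. The 15.0% spans members of all levels, so it is not comparable with a single band.

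Of the other surface receptors, Treml1 (ENSMUSG00000023993) encodes TLT-1, an alpha granule membrane protein that moves to the surface of activated platelets and binds fibrinogen. It was at 42.2, 62.0 and 45.6 CPM in B, against 195, 76.9 and 34.2 CPM in A. A replicate 3 lay below all B libraries, and the log2 fold change of -1.20 (SE 0.98, edgeR adjusted p = 1) was -0.24 without A replicate 1. Clec1b (ENSMUSG00000030159) encodes CLEC-2, the receptor for podoplanin, and was at 0, 24.5 and 38.0 CPM in B, against 3.77, 0 and 48.0 CPM in A. Each set held a library with no counts of it, and the log2 fold change was 0.27 (SE 3.18, edgeR adjusted p = 1). That value turned negative without A replicate 1, A replicate 2 or B replicate 3, at -0.21, -0.33 and -0.51.

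Tubb1 (ENSMUSG00000016255), the beta-1 tubulin that forms the microtubule ring of the platelet rim, had the lowest fitted value of the members. Its level was 36.4, 4.84 and 20.1 CPM in B, against 110, 152 and 139 CPM in A. The highest B library lay at about 36.4 CPM and the lowest A library at 110 CPM, and the means were 20.4 ± 15.8 CPM in B against 134 ± 21.3 CPM in A (SD, n = 3 each). The log2 fold change was -2.79 (SE 1.04) and did not pass (edgeR adjusted p = 0.627). It ran from -3.51 to -2.31 when each library was left out in turn, so its direction did not rest on 1 library.

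Taken by counts, 7 of the 9 members tested had a fitted value below 0 and 2 above, with a median log2 fold change of -0.75, while 52% of all tested genes were below 0 and their median was -0.06. At an unadjusted p under 0.05 edgeR counted 2 members lower in B (Ppbp and Tubb1), against 1.32% of all tested genes, and 0 higher, against 5.05%. In 3 of the 9 all B values lay below all A values (Ppbp, Gp1bb and Tubb1), as in 3.91% of all tested genes, and in 0 of the 9 above, as in 10.2%. DESeq2 called 2 members lower, Ppbp (adjusted p = 0.0297) and Tubb1 (adjusted p = 0.0322), and 0 higher, where it called 1.13% of tested genes lower and 5.34% higher. Over all settings tried, the adjusted p ran from 0.0297 to 0.998 for Ppbp and from 0.0322 to 0.998 for Tubb1. Limma-voom called 0 members in either direction, with 0.0761% of tested genes called lower and 2.12% higher.

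**Figure D2:**
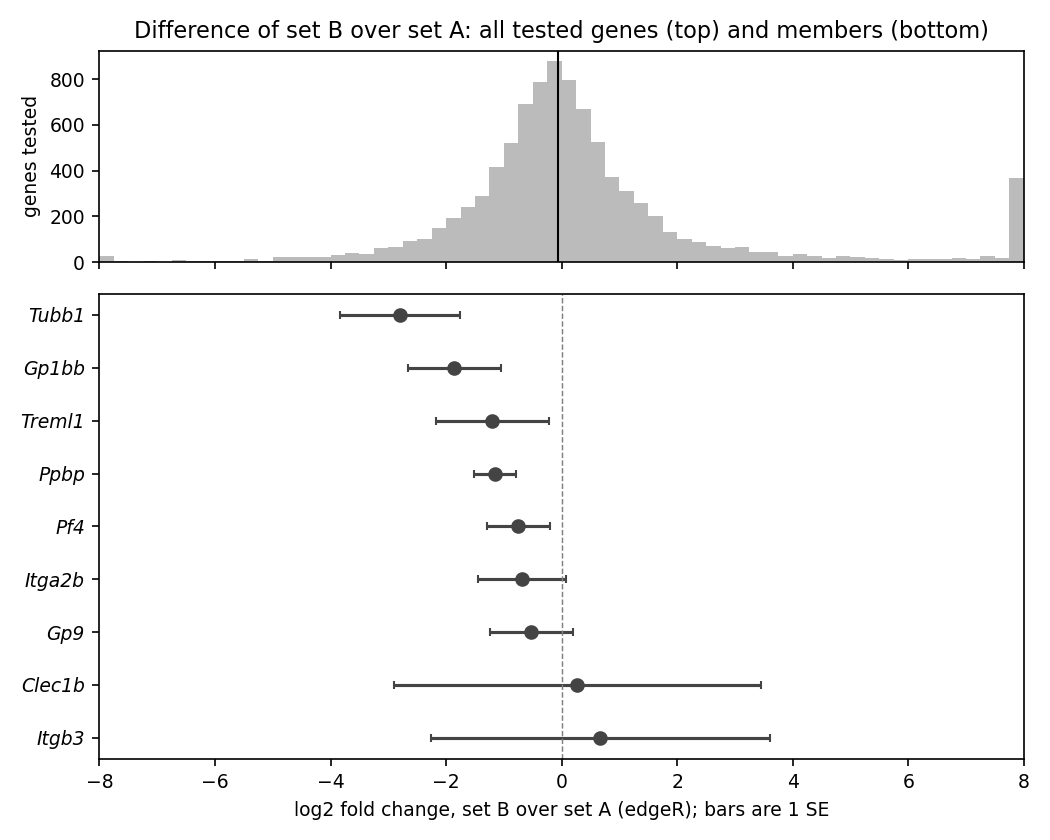
Log2 fold change of set B over set A by edgeR, as a histogram of all 9196 tested genes with their median as a line (top; values beyond 8 or -8 are drawn in the end bins) and for the 9 tested members with 1 SE (bottom). The members run from Tubb1 at -2.79 to Itgb3 at 0.67, and the longest error bars belong to Clec1b and Itgb3.

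Levels can be compared between genes once divided by length. On the scale of CPM per kb of exon (all exons of the gene in GENCODE M21, which may differ from the authors' annotation), Pf4 averaged 259 ± 85.5 in B and 415 ± 271 in A, and Ppbp 206 ± 57.4 in B and 431 ± 151 in A (SD, n = 3 each), so Pf4 led in B and Ppbp in A. Gp9 came next, at 112 ± 75.4 CPM per kb in B and 149 ± 54.5 in A. Below these the order differed between the sets. In B it ran Treml1 (35.6), Gp1bb (18.8), Itga2b (15.1), Tubb1 (14.5), Itgb3 (6.41), Clec1b (4.08) and Gp1ba (0.0236), as mean CPM per kb. In A it ran Tubb1 (95.1), Treml1 (72.9), Gp1bb (63.4), Itga2b (22.4), Gp1ba (11.3, from A replicate 1 alone), Itgb3 (3.82) and Clec1b (3.38), as mean CPM per kb. Tubb1 thus stood behind Treml1, Gp1bb and Itga2b in B and ahead of them in A. The ranges of neighbours in these orders overlapped, except that in B all libraries had more Gp9 than any had Treml1, and more Treml1 than any had Gp1bb, and in A all had more Pf4 than any had Gp9.

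**Figure D3:**
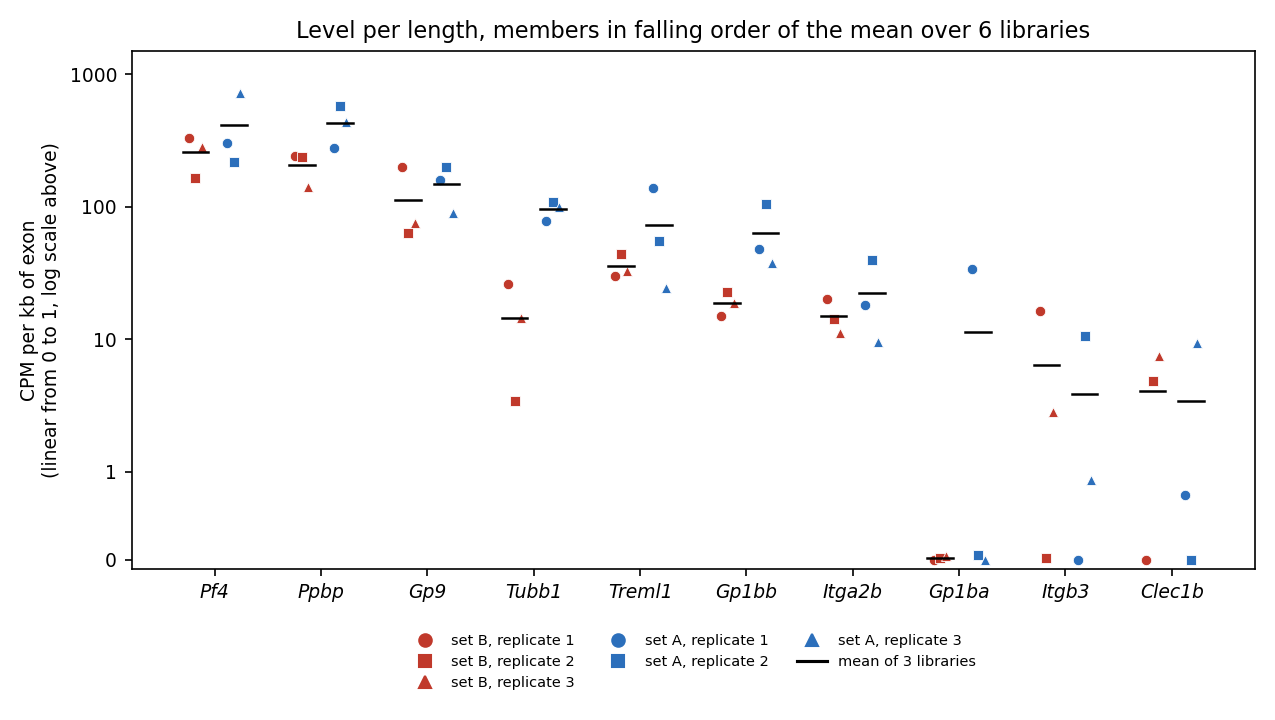
CPM per kb of exon for the 10 genes in each library, ordered by the mean over the 6 libraries, set B left of set A, markers for replicates and bars for means; the axis is linear from 0 to 1 and logarithmic above. Pf4 and Ppbp lead the order, and Gp1ba, Itgb3 and Clec1b end it with libraries at or near 0.

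Further genes of the platelet and megakaryocyte program gave a mixed picture. Of 79 listed, 52 could be tested and 0 passed in either direction by edgeR, with 38 fitted values below 0 and 14 above and a median log2 fold change of -0.42. With a library left out the filter admitted more genes, so those fits did not cover the same genes. Of 64 tested without A replicate 1, 33 were below 0 and 31 above (median -0.08). Of 63 tested without A replicate 2 or A replicate 3, 35 were below and 28 above. Without B replicate 2, 36 of 59 were below and 23 above. Without B replicate 1, 38 of 57 were below and 19 above, and without B replicate 3, 37 of 54 and 17. Among all tested genes 52% were below 0 in the main fit. That balance moved as well: without A replicates 1, 2 and 3 in turn, 5246, 5147 and 4984 genes were below 0. Those above numbered 5897, 5913 and 5832. Without B replicates 1, 2 and 3 in turn, 5676, 5492 and 5089 were below and 5190, 4986 and 4826 above. Without the filter on low counts 40 of 69 were below 0 and 29 above (median -0.20). Of all genes so fitted, 8091 were below and 10088 above (median 0.28). In 5 of the 52 all B values lay above all A values and in 4 below, as in 10.2% and 3.91% of tested genes. Of the 79 genes, 49, 43 and 45 reached 10 CPM in B, against 38, 39 and 40 in A. Genes with at least 1 count per library numbered 11141 to 14066 in B and 9242 to 11281 in A. At an unadjusted p under 0.05, 4 of the 52 were higher and 2 lower, where 5.05% and 1.32% of all tested genes were. DESeq2 called 5 higher (Gp6, Pear1, Plek, Ptgs1 and Tpm1) and 1 lower (Mef2c), against 5.34% and 1.13% of all tested genes. Limma-voom called Gp6 alone, as higher, against 2.12% called higher and 0.0761% lower. Of the 79 genes, 10 had 0 counts in all 6 libraries: the receptors Adra2a and Selp, the granule genes Mmrn1, Timp3, Egf, Angpt1 and Cxcl5, the kinase Prkg1, and the transcription factors Tal1 and Meis1. Selp encodes P-selectin and Mmrn1 multimerin, both alpha granule proteins of platelets. Neither was counted in libraries that each held at least 118 CPM of Pf4 and 151 CPM of Ppbp. The part of depth, and of the authors' counting and annotation, in these zeros was not tested.

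Among 23 receptor genes, 13 were tested. Gp5, the further chain of the GPIb-IX complex, was at 108, 53.9 and 46.9 CPM in B, against 332, 133 and 54.7 CPM in A (log2 fold change -1.48, SE 0.85, edgeR adjusted p = 1). Gp6, the collagen receptor GPVI, which signals through the same Fc receptor gamma chain as the IgE receptor, had the opposite order, at 46.7, 34.6 and 8.52 CPM in B, against 0, 0.151 and 0 CPM in A. Every B library was above every A library, the log2 fold change of 9.05 (SE 3.19) did not pass (edgeR adjusted p = 0.583), and DESeq2 (adjusted p = 0.000244) and limma-voom (adjusted p = 0.0493) called it, while the adjusted p was 0.998 in edgeR with the replicate number as a block. Itga2, which encodes the CD49b of the sort, was at 14.0, 31.9 and 0 CPM in B and 0 in all A libraries, and was not tested. The receptor genes of highest level, the tetraspanin Cd9, the scavenger receptor Cd36 and the integrin chain Itgb1, which many leukocytes also express, had adjusted p = 1 by edgeR. Cd9 was at 1093, 757 and 736 CPM in B, against 1129, 864 and 1134 CPM in A.

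Of 16 granule cargo genes 8 were tested. Srgn, the proteoglycan serglycin of granules in platelets and many leukocytes, was at 1883, 1509 and 1392 CPM in B, against 1946, 1852 and 2150 CPM in A (log2 fold change -0.42, SE 0.17, edgeR adjusted p = 0.711). Clu, clusterin, was at 492, 161 and 43.0 CPM in B, against 229, 571 and 276 CPM in A. Sparc, osteonectin, was at 118, 37.1 and 7.08 CPM in B, against 4.63, 4.48 and 64.4 CPM in A. Clu and Sparc each varied more than 10-fold within set B, and the sets overlapped for both.

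Of 16 signalling genes 15 were tested, and those of highest level are shared with leukocytes. Rap1b, the small GTPase that switches on integrins, was at 2043, 2220 and 1922 CPM in B, against 1887, 2417 and 1828 CPM in A (log2 fold change -0.09, SE 0.16, edgeR adjusted p = 1). Bin2 averaged 965 ± 324 CPM in B against 816 ± 87.6 CPM in A, and Fermt3, kindlin-3, which binds integrin tails, 556 ± 62.8 CPM in B against 436 ± 256 CPM in A (SD, n = 3 each). Neither differed beyond the spread between libraries.

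Of 14 genes for the cytoskeleton and platelet formation 11 were tested. Myl9, a myosin regulatory light chain of platelets and smooth muscle, was at 162, 1.01 and 155 CPM in B, against 588, 335 and 470 CPM in A. As for Tubb1, every B library lay below every A library and B replicate 2 was the lowest (log2 fold change -2.23, SE 1.39, edgeR adjusted p = 1). Tpm4, a tropomyosin, averaged 619 ± 151 CPM in B against 771 ± 187 CPM in A, and Flna, filamin A, 370 ± 41.3 CPM in B against 373 ± 104 CPM in A (SD, n = 3 each).

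Of 10 transcription factor genes 5 were tested. Nfe2, needed for platelet release in mice and also present in other myeloid cells, was at 439, 97.7 and 86.7 CPM in B, against 239, 91.1 and 263 CPM in A. Fli1, an ETS factor of megakaryocytes and other blood cells, was at 71.1, 87.7 and 103 CPM in B, against 85.9, 73.1 and 116 CPM in A, with the sets overlapping for both. Mef2c, which B cells also use, was at 86.1, 105 and 111 CPM in B, against 109, 414 and 360 CPM in A (log2 fold change -1.61, SE 0.55, edgeR adjusted p = 0.542, against 0.022 in DESeq2 and 0.441 in limma-voom).

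**Figure D4:**
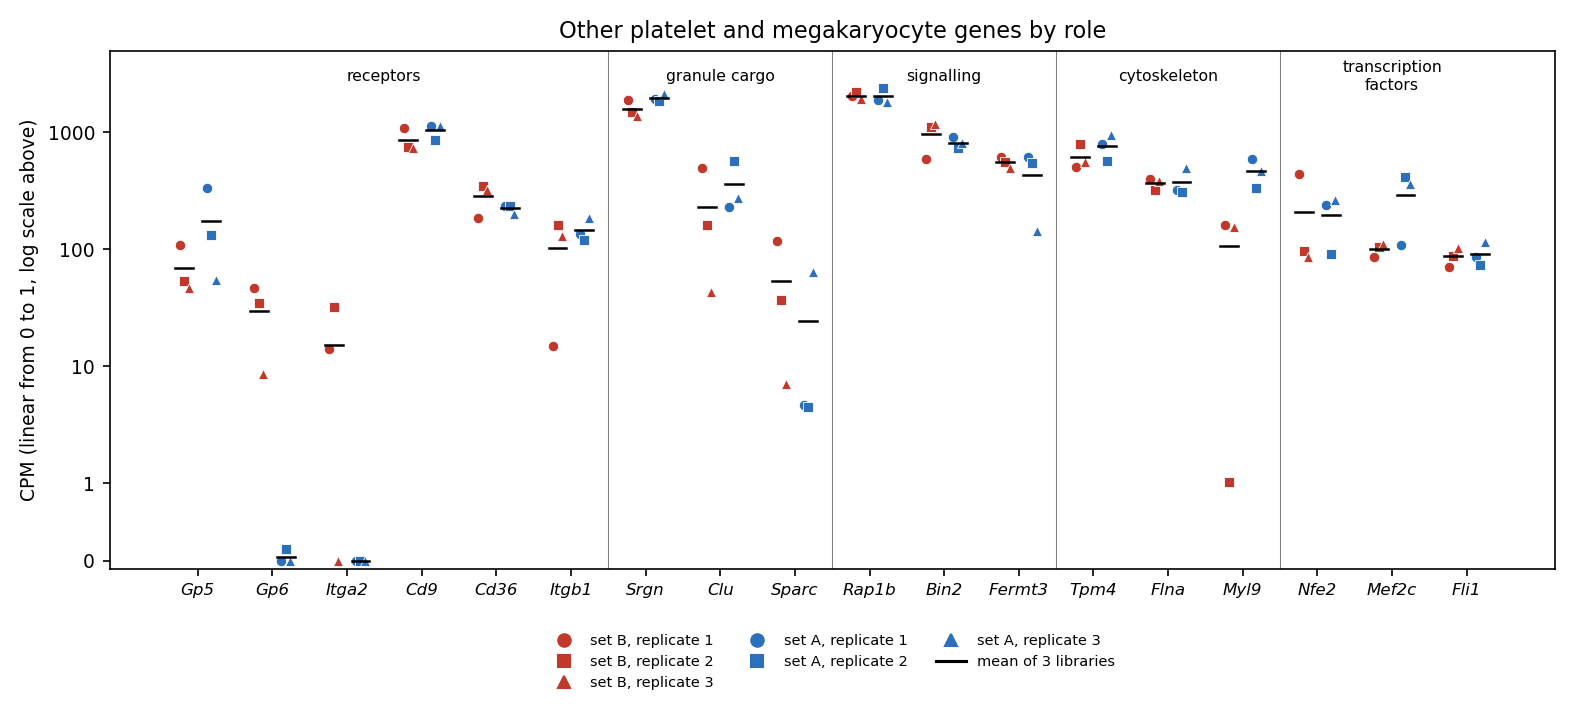
CPM per library of 18 further platelet and megakaryocyte genes grouped by role, set B left of set A, markers for replicates and bars for means, on an axis that is linear from 0 to 1 CPM and logarithmic above. Gp6 is near 0 in all A libraries, Myl9 lies lower in all B libraries than in any A library, and Rap1b, Flna and Fli1 sit at like levels in both sets.

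Markers of other blood cells moved between the same libraries. The 9 erythroid genes summed to between 109 and 186 CPM in B, against 269 to 630 CPM in A. The sum came from globins, apart from Epor at 48.9 CPM in B replicate 1, and Alas2, Slc4a1 and Klf1 were at 0 in all libraries. The 8 T cell genes summed to between 184 and 232 CPM in B, against 481 to 1056 CPM in A with Cd4 at 0 throughout, and the 10 monocyte and macrophage genes to between 24708 and 32699 CPM in B, against 35040 to 42266 CPM in A, most of it Lyz2, which neutrophils also express. In these lists, as in the platelet sum, every B library was below every A library. For the monocyte list this rested on Lyz2: without it, a sum added after the values were seen, the other 9 genes came to 2052, 2448 and 2953 CPM in B, against 2510, 3858 and 3025 CPM in A, which overlapped. C1qb, a complement gene of macrophages in that list, was at 129, 148 and 80.0 CPM in B, against 14.6, 13.6 and 39.3 CPM in A. The 8 basophil genes summed to between 1449 and 3195 CPM in B, against 39.7 to 385 CPM in A, and the 10 neutrophil genes, with Ly6g at 0 throughout, to between 12431 and 23050 CPM in B, against 2400 to 9548 CPM in A, so these lists lay higher in every B library. The 7 B cell genes (3663 to 4981 CPM in B, 3287 to 5188 CPM in A) and the 7 natural killer genes (1013 to 1498 CPM in B, 944 to 2313 CPM in A) overlapped between the sets. Mitochondrially encoded genes took 1.73% to 1.96% of counts in B and 2.21% to 3.88% in A. The part of these measures in the lower platelet sum of set B was not tested.

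**Figure D5:**
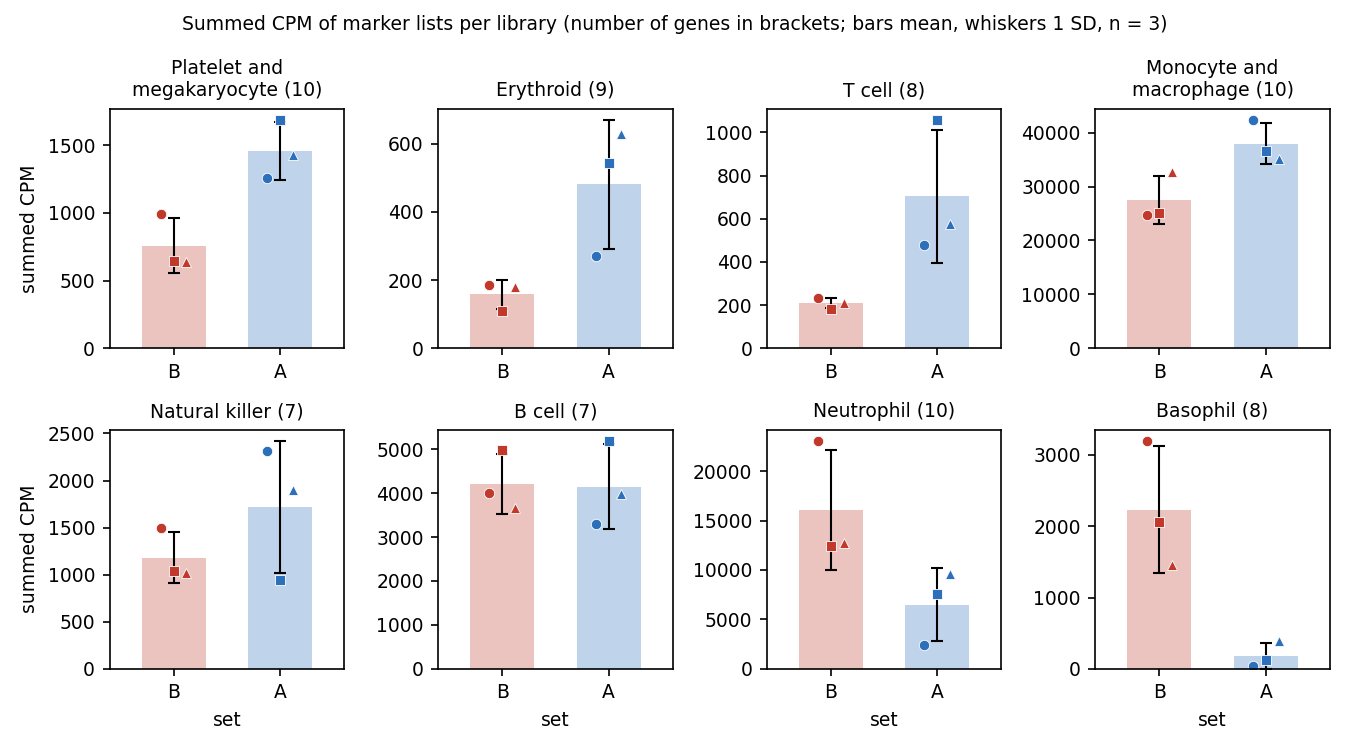
Summed CPM of the 10 platelet and megakaryocyte genes and of 7 marker lists of other blood cells, with set B left of set A in each panel; bars are means, whiskers 1 SD (n = 3) and points the libraries, and the number of genes is in brackets. The platelet, erythroid, T cell and monocyte sums are lower in all B libraries, and the neutrophil and basophil sums are higher.

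None of the 5 genes whose levels followed the platelet sum most closely is a platelet marker of the lists used here. Over the 6 libraries and 7074 genes with a mean of at least 10 CPM, the Pearson correlation of log2(CPM + 1) with the summed CPM of the 10 genes on the same scale was highest for mt-Nd1, a mitochondrially encoded subunit of complex I (0.995), followed by Zdhhc3, a palmitoyltransferase (0.988), H2-Aa, a class II histocompatibility chain (0.963), Cwc15, a splicing factor (0.959), and Eif3d, a translation initiation factor (0.955). mt-Nd1 was at 815, 631 and 601 CPM in B, against 934, 1223 and 1089 CPM in A. These values describe 6 libraries that share the contrast between the sets, with the highest values picked from 7074 genes. Of the further platelet genes, 47 were among the 7074, with 28 correlations above 0 and 19 below and a median of 0.0933, against a median of -0.179 for all 7074. They ran from 0.868 for Tuba4a, an alpha tubulin of platelets (rank 51), to -0.773 for Gp6 (rank 6681). Gp5, the fellow chain of the GPIb-IX complex, ranked 520 (0.542). Tuba4a was named after its value was seen.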

How the data were processed

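Smart-seq2 libraries of sorted blood cells were read as 150-base pairs, per the labels' protocols; the sample descriptions also name 10x Genomics. The authors deposited raw counts per Ensembl gene, 1 column per library. Cutadapt 1.9, HISAT2 2.2.1 and DESeq2 are named, without a role, per the submitters' processing notes. Counting program, genome build, annotation, strand use: not given in the sources used here. Totals far exceed the read yield stated in the labels, and counts of 4 (5211 values) outnumber those of 3 (819) and 5 (660), so the number of fragments behind a count is not known.

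CPM were computed as counts over the column total. Symbols matched 55141 of 55401 identifiers. Set B was tested against set A by the quasi-likelihood F test of edgeR 4.0.16 in R 4.3.3 (TMM scaling, genes kept by filterByExpr, robust fit), with Benjamini-Hochberg adjustment over 9196 genes and a threshold of 0.05. An SE is the absolute log2 fold change over the square root of F. The fit was repeated with RLE factors, with library size alone, unfiltered, with a stricter filter (a mean of 10 CPM, and 10 counts throughout 1 set), with DESeq2 1.42.0, limma-voom (limma 3.58.1) with quality weights, a non-robust fit, a replicate block, counts divided by 4, and each library left out. The functions were tested on simulated data. Sums over the 10 genes and lists were given no test.

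The 10 genes and the lists were chosen with earlier results of these data known; 148 of 149 list entries matched (Ahsp did not). Named genes were the 10 members, the 3 of highest mean in each further platelet list, Itga2, Gp5 and Gp6. Leading markers of other cells and the 5 genes most like the platelet sum were named too. Those named by a DESeq2 or limma-voom call or for being at 0 were chosen after their values were seen. So were the basophil genes other than Fcer1a and Mcpt8.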

Additional observations from a re-analysis of the deposited data

How the results depend on the processing

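The count of platelet genes called was 0 under all settings tried except DESeq2, which called 2 (Ppbp and Tubb1). For the further platelet lists it was 0 except with DESeq2, which called 6, and limma-voom, which called 1 (Gp6). Over all genes edgeR called 2; DESeq2 called 595, limma-voom 202, a replicate block 0, and leaving out 1 library 0 to 1 (1 without B replicate 3, 0 without any other). The cause of these differences was not tested. Of the 9 platelet genes tested, 7 kept a fitted value below 0 under every setting that gave one. Clec1b turned to -0.27 with the replicate block and ran from -0.51 to 3.26 with a library left out (-0.21 without A replicate 1, -0.33 without A replicate 2, -0.51 without B replicate 3). Itgb3 ran from -1.51 to 3.86, with -1.51 without B replicate 1. With the stricter filter Clec1b and Itgb3 had no value. The median over all genes was -0.06 with TMM, -0.16 with RLE and 0.05 with library size alone, and 0.87 by limma-voom and 0.48 with the replicate block; the platelet median was -0.75, -0.83, -0.68, -0.76 and -0.65 under the same settings, and it ran from -1.24 without B replicate 1 to -0.62 without B replicate 2. The log2 ratio of the summed platelet CPM, -0.94, ran from -1.18 to -0.82 with a library left out and was -0.99 without Ppbp and Pf4, where the sets overlapped. The numbers were not taken as pairs, since no block is stated in the sources used here. Same-numbered libraries of the sets did not deviate together (correlations 0.028, -0.0241 and 0.0261 for replicates 1, 2 and 3). Given the low agreement within sets, that check could neither show nor exclude pairs. Within sets, log2 CPM of the tested genes correlated only at 0.463 to 0.623 between B libraries and at 0.391 to 0.405 between A libraries. With 3 libraries a set and near-zero values common among tested genes below 100 CPM, differences in Gp1ba, Itgb3 and Clec1b could not be resolved.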

Other observations

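Ppbp and Pf4 lie in a cluster of chemokine genes, and their neighbours (protein-coding genes within 200 kb in GENCODE M21) were mostly silent in these libraries. Cxcl5, Cxcl3 and Cxcl15 had 0 counts in all 6 libraries, as did the non-chemokine neighbours Rassf6, Mthfd2l and 5830473C10Rik. Cxcl1 was at 0.101, 0 and 0.0625 CPM in B, against 0.0726, 0.0378 and 0.108 CPM in A. Cxcl2, a neutrophil attractant induced in activated myeloid cells, was the exception, at 1.37, 1.29 and 7.93 CPM in B, against 48.2, 103 and 9.73 CPM in A, so every B library lay below every A library, as for Ppbp. These neighbours were looked up after the values of Ppbp and Pf4 were seen, and no test was run on them.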
